A study of Mus musculus with 19 samples.

Results

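This account compares livers that lack Ager with livers that lack Myd88, each array set directly against the other genotype. The 10 arrays were chosen by sample title alone: 6 arrays from Ager-null mice (Ager_null) and 4 from Myd88-null mice (Myd88_null), out of 19 arrays in the series. All mice were male C57BL/6 animals aged 10 to 12 weeks, and all livers were taken 2 h after an 85% hepatectomy. Resection, time, sex, strain and age were thus shared by both groups, and each group lacks a gene that the other keeps. The remaining arrays are 5 from wild-type mice (WT) and 4 from mice null for both genes (Ager_Myd88_null), which here supply part of the estimate of spread and a point of reference. The labels describe whole-body null genotypes and do not say how the alleles were made or how often they were backcrossed. Unresected liver was not analysed here, and every difference is one between genotypes after surgery. The labels do not state separate cultures or litters, only 1 RNA sample per mouse, so the p-values measure the spread between these samples.

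Ager encodes RAGE, a cell-surface receptor of the immunoglobulin family that binds advanced glycation end products, HMGB1 and S100 proteins released by stressed or dying cells. Myd88 encodes the adaptor that most Toll-like receptors and the receptors for IL-1 and IL-18 use to activate NF-kB and MAP kinases. In the liver both routes are known for sensing damage and gut-derived products, and in the first hours after resection Kupffer cells release TNF and IL-6, which prime hepatocytes to re-enter the cell cycle through NF-kB, STAT3 and immediate early genes. The direct comparison asks where livers without the receptor and livers without the adaptor differ in that early phase.

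Values are the deposited log2 expression levels, on which a step of 1 is a doubling. A difference is given as Ager_null minus Myd88_null on the log2 scale with its standard error, and a gene was called when its limma p, adjusted by the Benjamini-Hochberg method over 8515 tested genes, was under 0.05. Arrays correlated with the others at a median of 0.9654 to 0.9867. The lowest of these belonged to Myd88_null 4, which also had the lowest array weight, 0.318. The sample descriptions carry an S number of unstated meaning. The Ager_null arrays bear S numbers from 13 to 19, and Myd88_null arrays 1 to 4 bear S 3, 4, 10 and 20. No Myd88_null array lies between S 13 and 19, so S number and genotype cannot be told apart. Hepatocyte markers were high (14 of 16 over log2 4 on all arrays). Kidney and glomerulus markers, looked at because the extraction text speaks of glomeruli, were over log2 4 on all arrays for 0 of 12, the highest mean being 4.11 for Podxl. T and NK cell markers were at or under log2 4 for 14 of 14.

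The targeted genes were read first. Myd88 read 5.43 at the lowest, 5.84 at the median and 6.39 at the highest of the 6 Ager_null arrays, and 3.70, 3.85, 3.11 and 3.31 on Myd88_null arrays 1 to 4. The groups did not overlap, and the difference was 2.42 ± 0.24 (adjusted p = 1.87e-05). Every array of both groups therefore matched its Myd88 label. The pair of Ager probe sets read 3.10 ± 0.22 and 2.40 ± 0.03 (SD, n = 6) in Ager_null and 3.27 ± 0.11 and 2.19 ± 0.12 (SD, n = 4) in Myd88_null, all too dim to pass the filter. The Ager label thus could not be checked from expression.

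Between Ager_null and Myd88_null 107 genes were called, 1.26% of those tested. Of these, 31 were higher in Ager_null (0.364%) and 76 lower (0.893%). The 2 groups of arrays did not overlap for 95 of the 107, against 334 (3.92%) of all tested genes, 112 with Ager_null higher (1.32%) and 222 with it lower (2.61%). Their differences had a median size of 0.86, and 45 were larger than 1. At an unadjusted p under 0.05 stood 1352 genes, 15.9%. The split into higher and lower depended on scaling: 31 against 76 as deposited became 47 against 42 after a further quantile normalization and 91 against 52 after centring each array on its median, the median of all genes shifting by 0.06 and 0.08. With the replicate block, which pairs same-numbered arrays, the count was 155, with 47 higher and 108 lower. Such a pairing is an assumption and is not stated in the labels.

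The count rested on single arrays. Myd88_null 4 was the most extreme array of its group for 61 of the 107 genes, and without it 30 genes were called (0.352%), 28 of them among the 107. Without Myd88_null 2 the count was 46, without Ager_null 1, 3, 4 and 5 it was 66, 63, 50 and 61, and without Ager_null 6 it was 179. Leaving out Myd88_null 1 or 3 gave 135 and 102, and leaving out Ager_null 2 gave 88. None of the 59 called genes named in the text changed sign when any 1 array was left out. Where the groups do not overlap, as in 95 of the 107, leaving out 1 array cannot change the sign. Nothing is therefore read from the kept signs. The 28 hold H2-Bl, Glo1, Abca3, Tubb5, Sik1 and Zfp945 on chromosome 17, Myd88, Limd1, Lars2, Itga9 and Gnai2 on chromosome 9, and Gnai1, Dclre1a, Lgals1, Setdb2, Gbe1, Paqr7, Crygn, Zfp979, Zfp991, Znf41-ps, Fgfr1, Gpc1, Wwtr1, Qsox1 and Mup10 elsewhere. Every other called gene named in the text lost its call without Myd88_null 4.

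**Figure D1:**
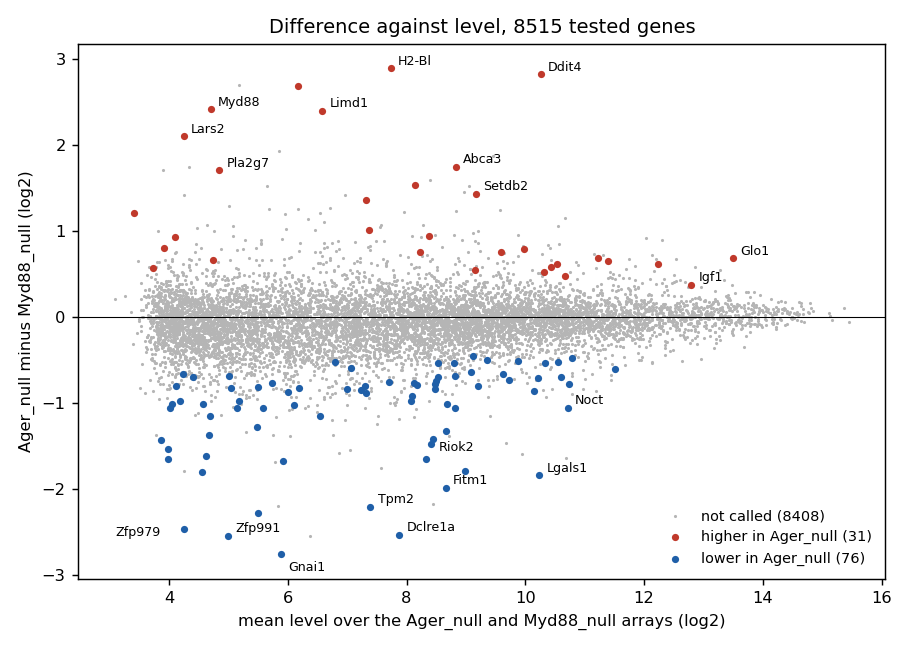
Each point is 1 of 8515 tested genes, with its mean level over the 10 arrays (log2) across and Ager_null minus Myd88_null (log2) upwards. The 31 called genes higher in Ager_null (red) and the 76 lower (blue) lie at all levels, from H2-Bl at 2.90 down to Gnai1 at -2.77.

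Among genes lower in Ager_null, Gnai1, an inhibitory G protein alpha subunit, differed most. It read 3.62, 4.25 and 6.19 at the lowest, median and highest of the Ager_null arrays and 6.87, 6.90, 7.63 and 7.72 on the Myd88_null arrays. The highest Ager_null array thus stayed under the lowest Myd88_null array, with a difference of -2.77 ± 0.40, a fold of 6.80 (adjusted p = 0.00172). Another, dimmer probe set of Gnai1 differed by -2.01. Gnai1 averaged 6.39 ± 0.50 (SD, n = 5) in WT and 6.99 ± 0.57 (SD, n = 4) in Ager_Myd88_null, both nearer to Myd88_null.

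Lgals1, which encodes the galactoside-binding lectin galectin-1, was bright and evenly lower. It ran from 8.73 through a median of 9.37 to 9.83 in Ager_null and read 10.87, 11.22, 11.49 and 11.05 in Myd88_null. The difference was -1.84 ± 0.24 (adjusted p = 0.000375), and it was -1.88 without Myd88_null 4. WT averaged 10.72 ± 0.40 (SD, n = 5) and Ager_Myd88_null 10.83 ± 0.42 (SD, n = 4), so the Ager_null arrays were the low ones.

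Dclre1a, a nuclease of DNA cross-link repair, read 5.67, 6.50 and 8.03 at the lowest, median and highest of Ager_null and 9.31, 9.72, 8.28 and 9.27 in Myd88_null (-2.54 ± 0.44, adjusted p = 0.0068). As the mean of its 3 probe sets Dclre1a differed by -0.88, still called (adjusted p = 0.0163). Tpm2, the beta-tropomyosin of contractile filaments, ran from 5.29 to 7.11 in Ager_null and read 7.47, 8.09, 8.98 and 9.45 in Myd88_null (-2.21 ± 0.41, adjusted p = 0.0125). Fitm1, a membrane protein of lipid droplet formation, ran from 6.49 to 8.89 against 9.23, 9.50, 10.25 and 9.65 (-1.99 ± 0.41, adjusted p = 0.0216). In all 3 genes the groups were separate, though without Myd88_null 4 Tpm2 and Fitm1 stood at -1.90 and -1.99 with an adjusted p of 0.0647 each. With the S range as a block Fitm1 was at -2.04 and not called (adjusted p = 0.0537). The range S 13 to 20 holds all Ager_null arrays and, of the Myd88_null arrays, number 4 alone. The fit with that block therefore leans on Myd88_null 4.

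Also well below Myd88_null were Plekhb1, a membrane-associated protein with a pleckstrin homology domain (-1.65 ± 0.34), Paqr7, a membrane progestin receptor (-1.62 ± 0.28), and Crygn, a crystallin gene (-1.54 ± 0.25). Paqr7 and Crygn were dim, with Ager_null medians of 3.91 and 3.05, and Crygn was not called when values under log2 4 were set to 4 (-0.76, adjusted p = 0.0578). Zinc finger genes were also among the called, all dim. Zfp991 read 2.90 to 4.93 in Ager_null and 6.57, 6.77, 6.21 and 5.51 in Myd88_null (-2.55 ± 0.39). Zfp979 read 2.60 to 3.78 against 5.54, 5.30, 5.02 and 6.05 (-2.46 ± 0.28, adjusted p = 6.27e-05, and -1.48 with values under log2 4 set to 4), and the zinc finger pseudogene Znf41-ps 3.11 to 4.27 against 5.54, 6.06, 5.26 and 4.96 (-1.81 ± 0.28). These 3, with Tpm2 and Paqr7, lie on chromosome 4, where 7 of 537 tested genes were called (1.30%), 7 of them lower in Ager_null, though after centring 3 of 8 called there were higher. Zinc finger genes of this kind are alike in sequence, and no deposited value tells their probes apart.

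Among genes higher in Ager_null, Ddit4 was the brightest of those that differed by more than 1. Ddit4 encodes REDD1, a stress- and glucocorticoid-induced inhibitor of mTOR signalling. It read 10.83, 11.72 and 12.26 at the lowest, median and highest of Ager_null and 8.04, 9.11, 10.50 and 7.73 in Myd88_null. The groups did not overlap and differed by 2.83 ± 0.55, a fold of 7.10 (adjusted p = 0.0185), but the spread was wide: WT ran from 8.52 to 11.62. Without Myd88_null 4 the difference was 2.46 and the call was lost (adjusted p = 0.0716).

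Setdb2, of a family of histone methyltransferases, stood apart in Myd88_null. It read 9.29, 9.86 and 10.46 at the lowest, median and highest of Ager_null and 8.33, 8.37, 8.74 and 8.38 in Myd88_null (1.44 ± 0.22, adjusted p = 0.00248). WT at 9.67 ± 0.36 (SD, n = 5) and Ager_Myd88_null at 9.92 ± 0.39 (SD, n = 4) were near Ager_null, so the double null did not share the low level of the single Myd88 null. Ndrg1, a stress-responsive gene, was higher by 0.95 ± 0.22 (0.74 without Myd88_null 4, adjusted p = 0.138, and adjusted p = 0.0559 with the replicate block). Serpina4-ps1, a serpin pseudogene, was higher by 1.53 ± 0.34 (adjusted p = 0.0721 with the block). Srp72, a subunit of the signal recognition particle, was higher by 0.79 ± 0.18 (0.10 on its other probe set), and Wdr33, a factor of messenger RNA polyadenylation, by 1.01 ± 0.18. A second probe set of Wdr33 read -0.08, and for Wdr33 the mean of probe sets was 0.28 and not called. Cd207, which encodes the dendritic cell lectin langerin (1.21 ± 0.23), and the collagen gene Col1a2 (0.80 ± 0.16) lay near the floor of the arrays, with Ager_null medians of 4.11 and 4.29. With values under log2 4 set to 4 they were at 0.16 and 0.34 and not called.

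**Figure D2:**
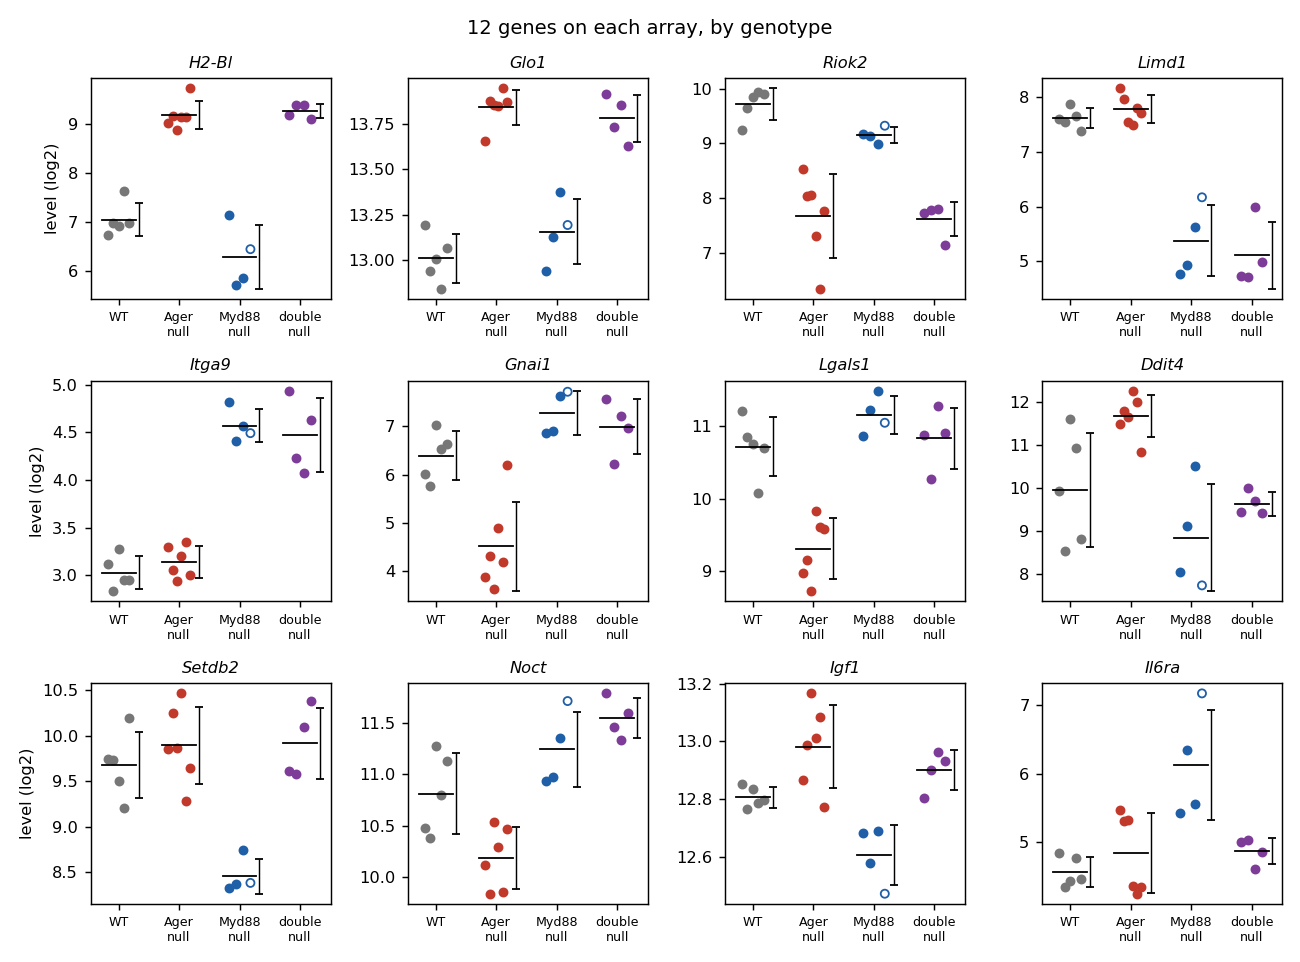
Levels (log2) of 12 genes on every array by genotype, with 5 WT, 6 Ager_null, 4 Myd88_null and 4 Ager_Myd88_null (double null) arrays as points, the group mean as a line and the SD as an error bar beside it. The open circle is Myd88_null 4. For H2-Bl and Glo1 the double null lies with Ager_null, for Limd1 and Itga9 with Myd88_null, and Il6ra is the only panel in which Ager_null and Myd88_null overlap.

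The share of genes called was also read by chromosome, since the deleted genes lie on chromosomes 17 and 9. On chromosome 17, with Ager, 17 of 400 tested genes were called (4.25%), and on chromosome 9, with Myd88, 10 of 481 (2.08%), against 80 of 7634 (1.05%) on the others. Within 150 annotated genes on each side of the deleted gene, 5 of 87 were called near Ager (5.75%) and 6 of 61 near Myd88 (9.84%), Myd88 among them, against 96 of 8367 (1.15%) elsewhere. No test of these shares was made. Without Myd88_null 4 the counts were 7 on chromosome 17 (1.75%), 6 on chromosome 9 (1.25%) and 17 on the others (0.223%), and 3 near Ager and 5 near Myd88. With the S range as a block the share was 7.25% on chromosome 17, but on chromosome 9 it was 3.95%, under the 4.43% on the others. That fit leans on Myd88_null 4.

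H2-Bl, a class I histocompatibility gene of the nonclassical kind, had the largest difference of the called genes higher in Ager_null. It read 8.87, 9.15 and 9.73 at the lowest, median and highest of Ager_null and 7.14, 5.70, 5.85 and 6.44 in Myd88_null. The groups were far apart, by 2.90 ± 0.23, a fold of 7.44 (adjusted p = 1.20e-06). Ager_Myd88_null averaged 9.27 ± 0.14 (SD, n = 4), level with Ager_null, and WT 7.05 ± 0.34 (SD, n = 5). H2-Bl has 1 probe set, and class I genes are alike in sequence.

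Glo1, glyoxalase I, lies on chromosome 17 outside that window of 150 genes. It removes methylglyoxal, a precursor of the glycation end products that RAGE binds, and was the brightest called gene. Glo1 read 13.66, 13.86 and 13.94 at the lowest, median and highest of Ager_null and 12.94, 13.12, 13.37 and 13.19 in Myd88_null. Every Ager_null array exceeded every Myd88_null array, by 0.68 ± 0.10 on average (adjusted p = 0.00172). The other 3 probe sets differed in the same direction, by 0.74, 1.10 and 0.56. Glo1 averaged 13.78 ± 0.13 (SD, n = 4) in Ager_Myd88_null and 13.01 ± 0.13 (SD, n = 5) in WT, so the genotypes without Ager were high and those with Ager low.

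Beside H2-Bl, the called genes near Ager were Sik1, Tubb5, Rnf5 and U2af1. Sik1, a salt-inducible kinase that restrains CREB coactivators, was dim (-1.07 ± 0.16, 3.08 to 3.70 against 4.36 to 4.70), and with values under log2 4 set to 4 it differed by -0.55, still called. The others were higher: Tubb5, a beta-tubulin (0.75 ± 0.13), Rnf5, a membrane-bound ubiquitin ligase 1 gene away from Ager (0.48 ± 0.11), and U2af1, a splicing factor of the acceptor site (0.58 ± 0.13). Tubb5 read -0.22 on another probe set and 0.27 as a mean of its probe sets, where it was not called (adjusted p = 0.447). In U2af1 the groups overlapped. Rnf5 and U2af1 were not called without Myd88_null 4 (adjusted p = 0.132 and 0.139), nor was Rnf5 with the replicate block (adjusted p = 0.0587).

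Farther along chromosome 17 were Abca3, a phospholipid transporter (1.75 ± 0.37, 9.18 to 10.21 against 6.55, 8.02, 8.46 and 8.82), and Pla2g7, the secreted platelet-activating factor acetylhydrolase (1.71 ± 0.32). Fpr2, a formyl peptide receptor of phagocytes, was higher by 0.93 ± 0.21, and with dim values raised to log2 4 it was at 0.57 and not called (adjusted p = 0.156). Lower there were Tedc2, of a tubulin complex of centrioles (-1.79 ± 0.36, 6.94 to 8.94 against 9.83 to 9.94), Riok2, a kinase of small ribosomal subunit maturation (-1.48 ± 0.30), and Zfp945 (-1.65 ± 0.35, adjusted p = 0.0617 with the replicate block). Zfp945 was dim as well, at -0.80 with values under log2 4 set to 4 (adjusted p = 0.0443). Gfer and Zfp944, named after their values were seen, were lower by 0.71 and 1.01 in their brightest probe sets. Gfer, the augmenter of liver regeneration, read 1.84 higher on its other probe set, so its direction is not settled. With the S range as a block Abca3, Tedc2, Zfp945, Zfp944, Gfer and Fpr2 were not called (adjusted p = 0.0801, 0.0733, 0.109, 0.0595, 0.101 and 0.0727).

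On chromosome 9 the called genes higher in Ager_null were Myd88, Limd1, Lars2 and 1 gene with a Riken name. Limd1, a LIM-domain scaffold, read 7.49, 7.76 and 8.16 at the lowest, median and highest of Ager_null and 4.77, 4.93, 5.63 and 6.17 in Myd88_null (2.40 ± 0.26, adjusted p = 4.33e-05). Lars2, the mitochondrial leucyl-tRNA synthetase, read 4.89, 5.28 and 5.77 against 3.22, 3.23, 3.21 and 3.15 (2.10 ± 0.16, adjusted p = 7.67e-07). Both sets of Myd88_null values lay well under the lowest Ager_null array, and Ager_Myd88_null averaged 5.11 ± 0.61 and 3.32 ± 0.28 (SD, n = 4), beside Myd88_null. With values under log2 4 set to 4 Lars2 differed by 1.30, still called.

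Lower in Ager_null near Myd88 was Itga9, an integrin alpha chain, at 2.94 to 3.35 against 4.82, 4.41, 4.57 and 4.49 (-1.43 ± 0.15, adjusted p = 2.87e-05). All its Ager_null values lay under log2 4, and with such values set to 4 the difference was -0.57 (adjusted p = 0.0346). WT at 3.03 ± 0.17 (SD, n = 5) matched Ager_null, so for Itga9 the genotypes without Myd88 were the high ones. Cmc1, a mitochondrial assembly factor, was lower by 0.52 ± 0.10 (adjusted p = 0.0647 without Myd88_null 4). Gnai2, another inhibitory G protein subunit and named after its values were seen, differed by -0.51 ± 0.11 in its brightest probe set, by 0.80 in another and by 0.15 in their mean, so no direction is given.

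The double null stands on neither side of the contrast, though its arrays entered the filter and the estimate of spread that decided the calls. Its mean was nearer to Myd88_null for 10 of the 10 called genes on chromosome 9 and for 4 of the 17 on chromosome 17, where 13 were nearer to Ager_null. Myd88 is among the 10, and as it is deleted in Myd88_null and in the double null, its place was fixed in advance. For the 80 called genes elsewhere it was nearer to Myd88_null for 47 (58.8%), beside 51.3% of all tested genes. The WT mean lay between both single nulls for 91 of the 107, beside 28.8% of all tested genes. Choosing genes for a difference between the single nulls favours such a position, so nothing is read from it.

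**Figure D3:**
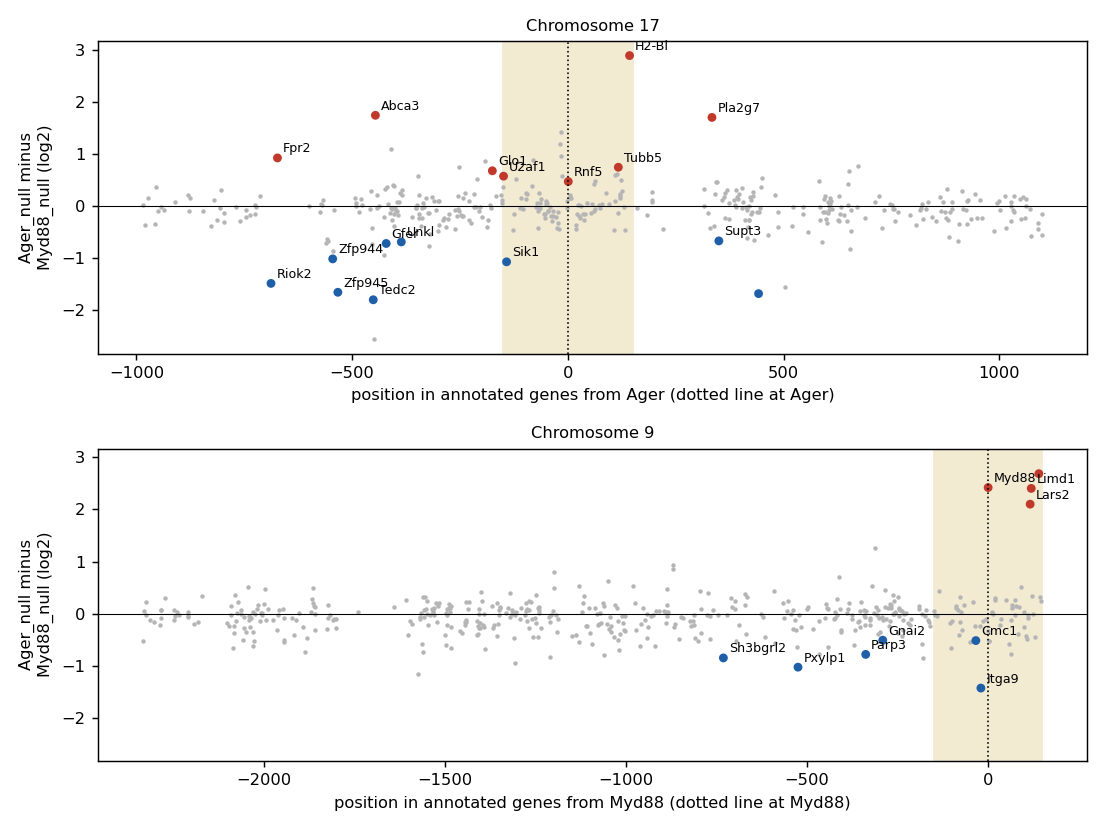
Differences (Ager_null minus Myd88_null, log2) of tested genes in chromosome order, counted in annotated genes from Ager on chromosome 17 (top) and from Myd88 on chromosome 9 (bottom). Called genes are coloured, red for higher and blue for lower, the band marks 150 genes on each side, and 5 called genes lie in the upper band and 6 in the lower.

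**Figure D4:**
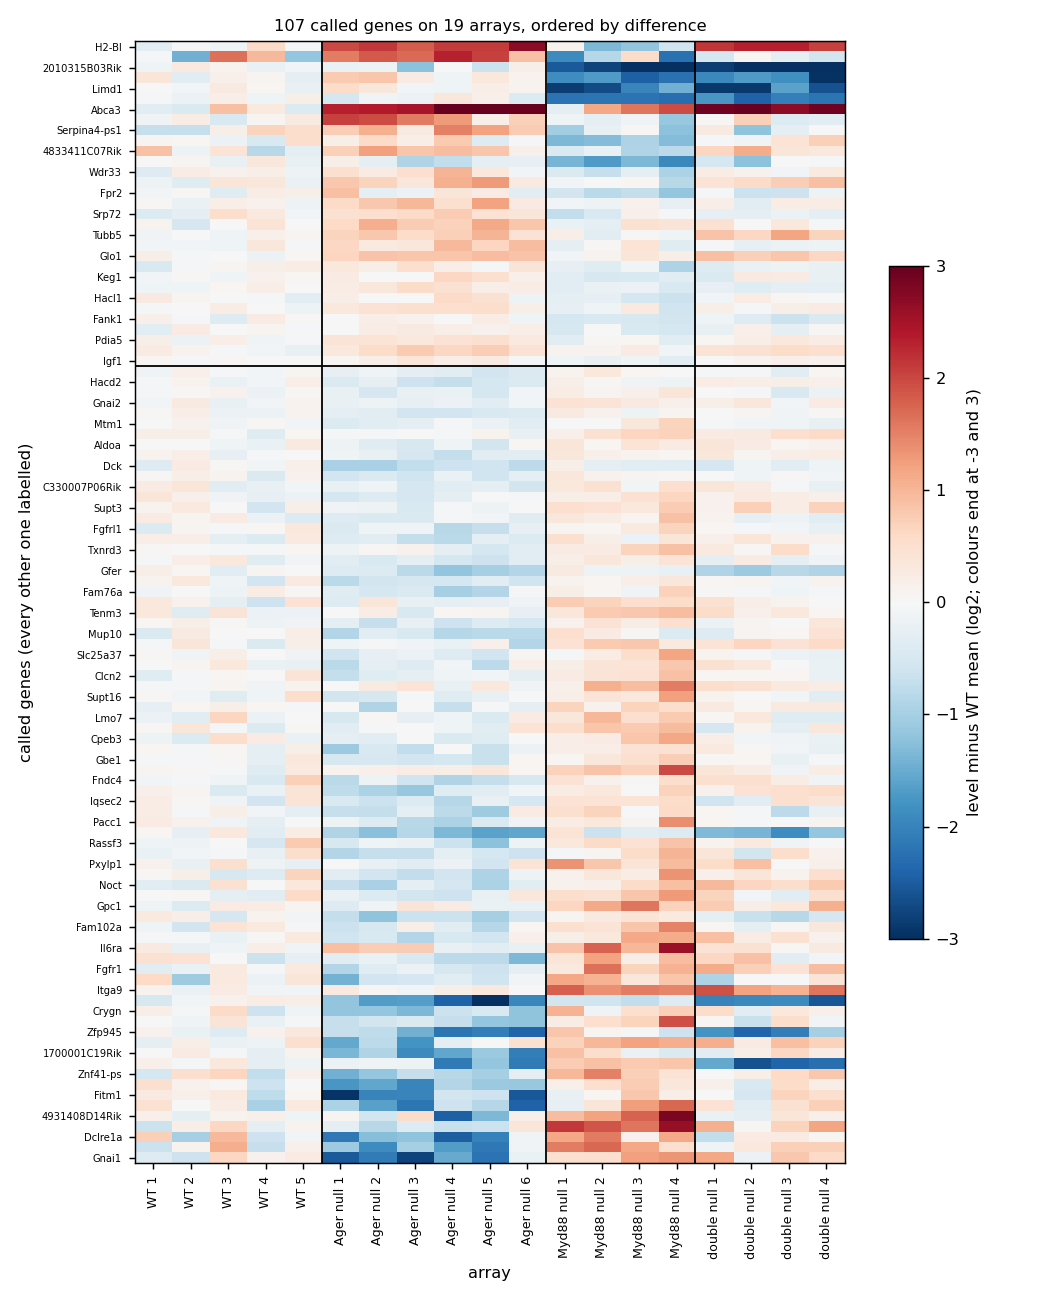
The 107 called genes (rows, ordered by difference) on 19 arrays (columns), as level minus the WT mean (log2, red above and blue below). The 31 genes above the horizontal line are higher in Ager_null, and several rows, among them Abca3 and Limd1, run on into the double-null arrays with the colour of 1 single null.

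Gene lists for the pathways of the priming phase were read by their counts and medians. Over all 8515 genes the median difference was -0.05, with 41.5% above 0, and 1.26% were called. For 3.92% of them the groups did not overlap. A list, or a member said to be apart, has to be set against those values. After centring the arrays the median of all genes was 0.03, and list medians moved up with it.

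In Toll-like receptor and IL-1 receptor signalling, Myd88 itself was called and the other 18 of 19 tested members were not. The median was -0.16, with 8 above 0 and 11 below. The members next in order were the LPS co-receptor Ly96, which read 5.22 to 6.28 in Ager_null and 6.69, 6.43, 5.90 and 5.93 in Myd88_null (-0.47 ± 0.20, adjusted p = 0.262), and the ubiquitin ligase Traf6, at -0.36 ± 0.18 (adjusted p = 0.339). For both genes the groups overlapped. Of 17 tested RAGE ligands and partners, Glo1 was called, with a list median of 0.03, and -0.09 without Myd88_null 4 and 0.11 after centring. Cd36, a scavenger receptor for oxidised lipids, read 7.60, 8.77 and 10.05 at the lowest, median and highest of Ager_null and 10.02, 9.98, 10.80 and 10.81 in Myd88_null (-1.47 ± 0.38, adjusted p = 0.0637), with touching ranges. Hmgb3, a chromatin protein related to HMGB1, was at -0.44 ± 0.17 (adjusted p = 0.216).

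NF-kB targets and cytokines, downstream of both RAGE and Myd88, had 0 of 20 tested members called, with 13 above 0 and a median of 0.19 (0.11 without Myd88_null 4). After centring, 16 were above 0 and 1 was called, with a median of 0.27. The site searched was GGGAA followed directly by TTTCC, on both strands of the 250 bases before the RefSeq transcription start (GRCm38.p6), and it was found in 0.0852% of 32851 such promoters. Of 17 tested members with a promoter in the table, 3 held it, namely Cxcl1, Cxcl2 and Nfkbia. Cxcl2, a neutrophil chemokine like Cxcl1, was near the floor at 3.85 ± 0.35 (SD, n = 6) in Ager_null and 3.87 ± 0.86 (SD, n = 4) in Myd88_null, with a difference of -0.02 ± 0.48 (adjusted p = 0.991). The stretches of the brighter Cxcl1 and Nfkbia are shown. The capitals mark the match, a description of these letters and no proof of binding, which for Nfkbia is the reverse complement.
Cxcl1 (chr5:90891159-90891198, plus strand): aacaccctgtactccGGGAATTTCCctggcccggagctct
Nfkbia (chr12:55492652-55492691, minus strand): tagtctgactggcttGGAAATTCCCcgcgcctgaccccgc

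Nfkbia, which encodes the inhibitor that retains NF-kB in the cytoplasm, read 11.68, 11.83 and 12.12 at the lowest, median and highest of Ager_null and 10.93, 11.70, 11.58 and 11.43 in Myd88_null (0.46 ± 0.14, adjusted p = 0.105). Cxcl1 spread widely, from 7.43 to 12.64 in Ager_null against 8.92, 9.81, 8.15 and 8.95 (1.24 ± 0.84, adjusted p = 0.496). Both genes overlapped between the groups. Irf1, an NF-kB and interferon target, read 5.09, 5.22 and 5.84 in Ager_null and 4.87, 4.70 and 4.85 on Myd88_null 1, 3 and 4, with Myd88_null 2 the highest of its group and still under every Ager_null array (0.47 ± 0.13, adjusted p = 0.0828). Its adjusted p was 0.0473 after a further quantile normalization. The chemokine genes Ccl2 (0.62 ± 0.28) and Cxcl10 (0.43 ± 0.37) did not pass, with WT means of 4.97 and 6.22 above both single nulls.

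The immediate early genes, transcribed within minutes of a stimulus, leaned the other way. Of 29 tested members, 26 were below 0, with a median of -0.35 (-0.34 without Myd88_null 4), and 0 were called. Maff, a small Maf factor, read 8.95 to 10.16 in Ager_null and 10.26, 10.40, 10.54 and 10.46 in Myd88_null, apart but not called (-0.70 ± 0.22, adjusted p = 0.109). Klf6 (-0.70 ± 0.20) and the nuclear receptor gene Nr4a2 (-1.76 ± 0.52) overlapped, with an adjusted p of 0.0941 and 0.0975. Nr4a2 was called without Ager_null 6 (-2.09, adjusted p = 0.0291).

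In the acute phase and IL-6/STAT3 list 1 of 36 members was called. Il6ra, the IL-6 receptor alpha chain, ran from 4.25 to 5.48 in Ager_null and read 5.42, 6.35, 5.56 and 7.17 in Myd88_null (-1.28 ± 0.31, adjusted p = 0.0481). The groups overlapped, and Il6ra lost the call without Myd88_null 4 (-0.93, adjusted p = 0.157) and with the replicate block (-1.08, adjusted p = 0.12). As the mean of its probe sets it was at -0.62 and not called (adjusted p = 0.0803). Fgl1 and Crp, secreted by hepatocytes and named after their values were seen, lay just outside the threshold without overlap. Fgl1, a hepatocyte mitogen, read 12.15, 12.42 and 12.82 in Ager_null against 11.43, 11.71, 11.98 and 11.17 (0.93 ± 0.23, adjusted p = 0.0535, and 0.031 with the replicate block). Crp, C-reactive protein, read 12.98, 13.15 and 13.20 against 12.71, 12.67, 12.88 and 12.89 (0.34 ± 0.08, adjusted p = 0.0534). The list median was 0.06, and 0.14 after centring, with 4 members called.

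Few genes of the metabolic lists were called. Gbe1, the glycogen branching enzyme, read 9.50, 9.65 and 10.22 in Ager_null and 10.23, 10.50, 10.66 and 10.91 in Myd88_null (-0.86 ± 0.15, adjusted p = 0.0068), apart by a narrow margin. With Sik1 it made 2 called of 25 in the gluconeogenesis, glycogen and insulin list, whose median was -0.09 (0.01 without Myd88_null 4). Igf1, the growth factor that growth hormone induces in hepatocytes, ran from 12.77 to 13.17 against 12.68, 12.58, 12.69 and 12.47 (0.38 ± 0.09, adjusted p = 0.0383), and its other 3 probe sets differed by 0.32, 0.36 and 0.17. Igf1 was not called without Myd88_null 4 (0.33, adjusted p = 0.132). Socs2, the growth hormone feedback inhibitor and named after its values were seen, read 9.80, 10.49 and 11.03 against 7.67, 8.11, 9.91 and 8.37 (1.87 ± 0.47, adjusted p = 0.0555), with touching ranges. In that axis 10 of 13 members were above 0, with a median of 0.18. Without Myd88_null 4 these were 8 of 13 and 0.09, and after a further quantile normalization 7 of 13 and 0.14.

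Clock genes had 15 of 19 members below 0, with a median of -0.40 (-0.25 without Myd88_null 4) and 1 called. Ager_null 4 was low in this list, with a median level of 6.47 against 8.25 to 9.37 on the other Ager_null arrays. On that array the output factor Dbp read 5.15, against an Ager_null median of 10.68. Noct, nocturnin, a rhythmic phosphatase of lipid metabolism, read 9.84, 10.21 and 10.54 in Ager_null and 10.93, 10.97, 11.36 and 11.71 in Myd88_null (-1.06 ± 0.20, adjusted p = 0.0145, and 0.0647 without Myd88_null 4). The groups were apart, and Ager_Myd88_null was higher still, at 11.55 ± 0.19 (SD, n = 4). The clock output factor Hlf and the kinase Csnk1d were named after their values were seen. Hlf was at -0.94 ± 0.26 (adjusted p = 0.0757) and Csnk1d at 0.59 ± 0.18 (adjusted p = 0.104). The hour of day at which each mouse was killed is not in the labels.

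In the lipid droplet list Fitm1 was called and 11 of 14 members were below 0, with a median of -0.14 (-0.08 without Myd88_null 4, and -0.06 after centring). Mgll, monoglyceride lipase and named after its values were seen, read 10.58, 10.80 and 10.95 against 11.11, 11.36, 11.21 and 12.14, without overlap (-0.66 ± 0.18, adjusted p = 0.0676). Cholesterol synthesis genes had 19 of 21 members above 0 and 0 called, with a median of 0.29, and 0.17 without Myd88_null 4. Fdps, farnesyl diphosphate synthase (0.68 ± 0.29, adjusted p = 0.261), and Sqle, squalene epoxidase (0.75 ± 0.36, adjusted p = 0.323), overlapped between groups. Glucocorticoid-responsive genes had Ddit4 called and 15 of 20 members above 0, with a median of 0.14, and 0.22 after centring. The NRF2 list had 17 of 19 below 0 (13 without Myd88_null 4), a median of -0.12 and 0 called. After centring 11 of 19 were below 0, with a median of -0.04.

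Genes of the unfolded protein response, induced when unfolded protein accumulates in the endoplasmic reticulum, were more often above 0 than below. Of 29 tested members of the unfolded protein and integrated stress response list, 21 were above 0 (23 without Myd88_null 4), with a median of 0.21, and 0 were called (2 after centring). The ER stress element, the site through which ATF6 and XBP1 act on chaperone genes, was searched as CCAAT, 9 bases of any kind and CCACG, on both strands of the 250 bases before the RefSeq start. It lay in 0.113% of 32851 promoters and in those of 8 of the 26 tested members with a promoter in the table. The members holding it had a median difference of 0.27 and 7 of 8 lay above 0, beside a median of 0.21 in the 21 that did not or had no promoter there. Stretches are shown for the 4 of the 8 with the largest differences, with capitals on the fixed letters (the reverse complement in Creld2). Not shown are Syvn1 (0.24 ± 0.23), Hsp90b1 (0.18 ± 0.11), Calr (0.13 ± 0.09) and Canx (-0.06 ± 0.10). Hspa5, Dnajc3 and Creld2 were named for the motif, after their values were seen.
Hspa5 (chr2:34772010-34772058, plus strand): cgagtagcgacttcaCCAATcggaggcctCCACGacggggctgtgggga
Pdia6 (chr12:17266476-17266524, plus strand): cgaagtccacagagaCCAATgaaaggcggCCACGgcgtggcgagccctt
Dnajc3 (chr14:118937812-118937860, plus strand): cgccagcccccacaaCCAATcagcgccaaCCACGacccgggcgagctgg
Creld2 (chr15:88819505-88819553, plus strand): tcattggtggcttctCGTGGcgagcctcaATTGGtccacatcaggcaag

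Pdia6, a disulfide isomerase, was the nearest to the threshold, with overlapping groups. It read 11.09, 11.56 and 11.70 at the lowest, median and highest of Ager_null and 10.59, 10.69, 11.32 and 10.99 in Myd88_null (0.58 ± 0.14, adjusted p = 0.0535, and 0.0117 with the replicate block). Hspa5, the chaperone BiP, read 13.84, 13.98 and 14.21 against 13.56, 13.65, 13.81 and 13.81 (0.29 ± 0.10, adjusted p = 0.143), and Dnajc3, its co-chaperone, 11.25, 11.39 and 11.58 against 10.89, 10.99, 11.16 and 11.08 (0.36 ± 0.14, adjusted p = 0.239). For Hspa5 and Dnajc3 every Ager_null array was above every Myd88_null array, though neither gene passed the test. They were the 2 such members of 29, beside 112 of all 8515 tested genes (1.32%), and were picked after their values were seen. Creld2 (0.65 ± 0.19), the secreted survival factor Manf (0.53 ± 0.15) and the co-chaperone Dnajb11 (0.42 ± 0.12) overlapped, with an adjusted p of 0.098, 0.081 and 0.0885.

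Immune lists differed in how far they rested on Myd88_null 4. MHC class II genes, which present peptides to T cells, had 6 of 6 tested members above 0 with a median of 0.97, and 4 of 6 and 0.52 without that array. H2-Eb1 read 6.71, 7.70 and 8.36 in Ager_null and 6.83, 6.45, 6.76 and 4.97 in Myd88_null (1.42 ± 0.37, adjusted p = 0.0645). H2-Aa (0.97 ± 0.33) and H2-Ab1 (1.21 ± 0.48) had adjusted p-values of 0.149 and 0.233, and H2-Ab1 read 4.08 on Myd88_null 4. Kupffer cell and macrophage markers had 15 of 17 members above 0, with a median of 0.41, and 7 of 17 with -0.05 without Myd88_null 4. The sum of their log2 levels ran from 137.6 to 154.7 in Ager_null and from 118.0 to 147.6 in Myd88_null. Csf1r, the receptor that macrophages need to survive, read 9.61 to 10.23 against 9.20, 9.50, 9.88 and 8.29 (0.63 ± 0.22, adjusted p = 0.173). Cd163 was at 0.56 ± 0.21 and Adgre1, which encodes F4/80, at 0.78 ± 0.34, and both were lowest on Myd88_null 4. The part of macrophage RNA in the class II values was not tested. In bulk tissue, fewer cells of a type and less RNA per cell cannot be told apart.

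Interferon-stimulated genes had 16 of 20 members below 0, with a median of -0.31 (-0.47 without Myd88_null 4) and 0 called. Irf7, a regulator of type I interferon, read 4.03, 4.54 and 5.01 in Ager_null and 6.07, 5.58, 5.44 and 5.30 in Myd88_null, without overlap (-1.05 ± 0.27, adjusted p = 0.0606). Irf9, the DNA-binding part of the interferon-activated complex, was at -0.93 ± 0.26 (adjusted p = 0.0777). With arrays of S 13 to 20 alone, which leaves Myd88_null 4 as the only Myd88_null array, the list median was 0.19, the opposite sign.

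Stellate cell and fibroblast markers held 1 called of 14, Col1a2, with a median of 0.12, and liver endothelium markers 0 of 17, with a median of -0.14. Hepatocyte markers had a median of 0.05 and 0 of 15 called. The sum of the log2 levels of the 16 hepatocyte markers on the array ran from 206.8 to 207.9 in Ager_null. In Myd88_null it ran from 205.6 to 208.1, so it did not separate the groups.

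**Figure D5:**
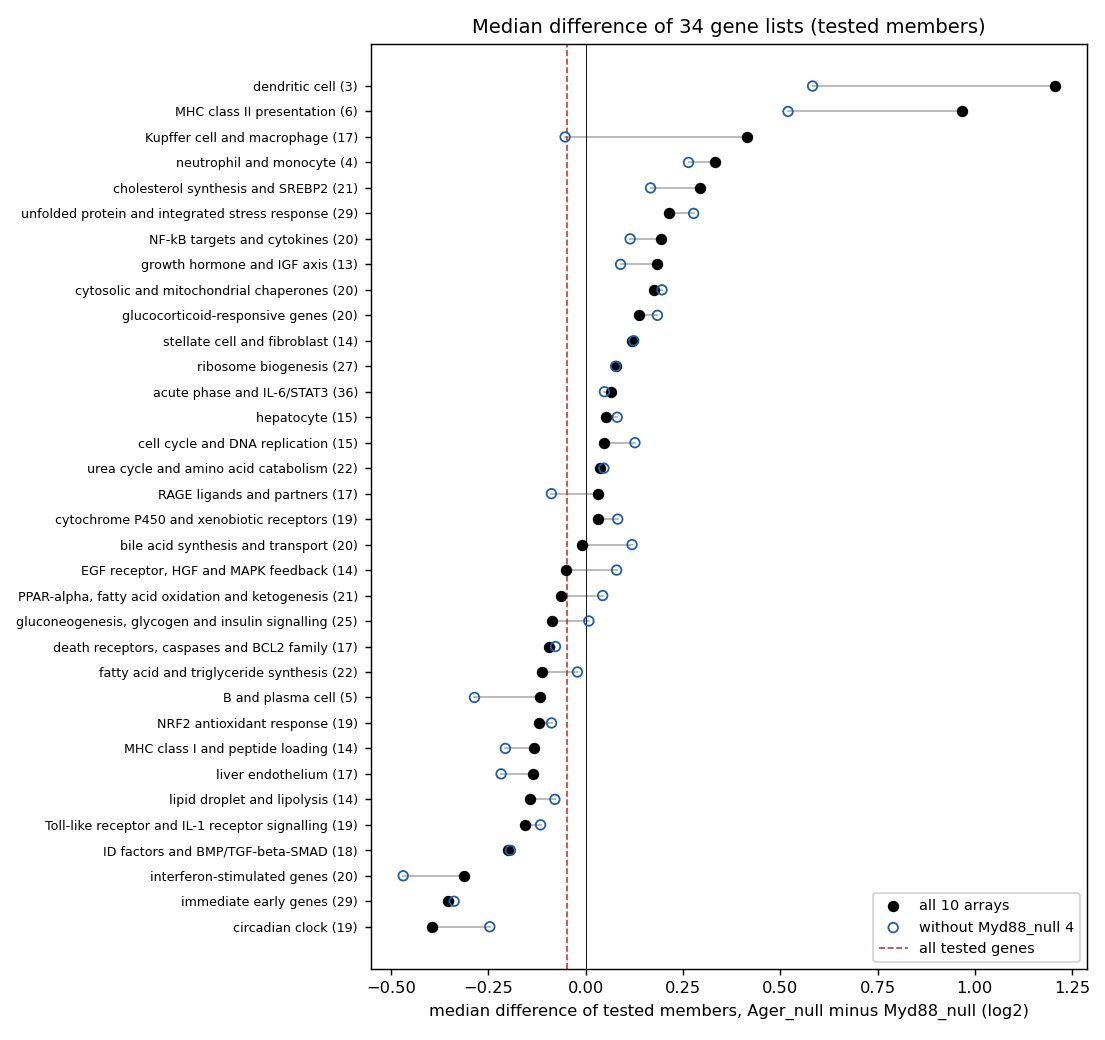
Median difference (Ager_null minus Myd88_null, log2) of the tested members of 34 lists with at least 3 of them, the number tested in parentheses. Filled points use all 10 arrays and open circles leave out Myd88_null 4, and the dashed line is the median of all tested genes at -0.05. The Kupffer cell median moves from 0.41 to -0.05 and that of immediate early genes from -0.35 to -0.34.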

How the data were processed

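The values deposited by the authors are log2 levels of each probe set from GCRMA 2.16, per the submitters' processing notes, and were used as given. Background and probe effects were thus removed upstream, and dim probe sets near log2 4 or under carry little information. Of 45101 probe sets, 64 controls, 932 with several symbols and 9160 with none were left out. Each of 18194 genes was represented by its brightest probe set, and 8515 genes over log2 4 on at least 4 arrays were tested. Groups came from sample titles.

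limma 3.58.1 in R 4.3.3 (lmFit, eBayes) was fitted to all 19 arrays with 4 genotypes, and the contrast was Ager_null minus Myd88_null, two-sided, with Benjamini-Hochberg adjustment over 8515 genes. Tables, figures and motif searches used Python 3.11.15 and pandas 2.3.3. On simulated arrays for this comparison, the fit called 77% of genes shifted by 1 and 99% of those shifted by 2 (log2) among 8515 genes, and 5.88% of its calls were false. These shares hold for the simulated arrays, and the false share among the 107 calls was not measured. No pair of arrays within a genotype was closer than 0.346 (root mean square, log2), so none was counted as a repeat. The number of arrays limits the precision.

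The replicate block takes same-numbered samples as paired, which is an assumption. Deviations of samples with the same number in the titles correlated at 0.47, 0.14, 0.17 and 0.11 for pairs 1 to 4. No correlations of differently numbered samples are given to set beside these, and within each genotype the numbers follow the order of the S numbers. The labels do not say what a number marks.

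Members and lists were chosen with earlier results of these data known. Named genes are Ager and Myd88, the 15 largest differences in each direction among called genes without overlap, called members of lists (otherwise up to 3 with the smallest p), and called genes within 150 annotated genes of Ager or Myd88. Members of the Toll-like receptor, RAGE and NF-kB lists could be named whether called or not. Riken and clone names were counted only. Gene order came from RefSeq on GRCm38.p6, and promoter sequences are RefSeq's of the same build. Alternatives tried were the arrays in the fit, the filter, the mean of probe sets, further quantile normalization, centring, a floor, trended and robust variances, array weights, S range and replicate blocks, and leaving out each array.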

Additional observations from a re-analysis of the deposited data

Results flagged for a closer look

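In groups of 4 and 6 arrays, single values stood far from the rest of their group by Dixon's criterion, which flags about 1 in 20 groups by chance. Many named genes and list medians were screened, so flags by chance are among those below. Their number was not set against chance, and nothing is read from it. Of the named genes, Myd88_null 4 was lowest for H2-Ab1 at 4.08 (next 6.48) and Ndrg1 at 7.30 (next 8.04), and highest for Jup at 7.36 (next 6.24). The same array was lowest for the median level of MHC class II genes at 7.22 (next 8.60) and of the 3 dendritic cell markers at 4.08 (next 6.48), where H2-Ab1 is the median member. Ager_null 6 was highest for H2-Bl at 9.73 and Gbe1 at 10.22, and lowest for Fdps at 11.45 (next 12.52) and for the median of interferon-stimulated genes at 4.50 (next 5.49). Ager_null 1 was lowest for Glo1 at 13.66, still above every Myd88_null array, and Ager_null 2 was highest for Ccl2 at 5.76 (next 4.60). Myd88_null 3 was highest for Setdb2 at 8.74, Myd88_null 1 for Gfer at 10.89, and Myd88_null 2 for Cdh1 at 9.24 and for the median of cytochrome P450 genes at 13.55 (next 13.40).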

How the results depend on the processing

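Of 22 alternatives, those that moved the count of 107 called genes by over 1.5 times were leaving out Ager_null 1, 3, 4, 5 or 6 (66, 63, 50, 61 and 179) or Myd88_null 2 or 4 (46 and 30), the fit on only 10 arrays (28), array weights (461), the S range as a block (386) and S 13 to 20 alone (990, resting on 1 Myd88_null array). Leaving out 1 array gave 30 to 179 in all. No filter gave 99, the filter at log2 6 gave 78, the mean of probe sets 97, quantile normalization 89, centring 143, the floor 107, and trended robust variances 142. The replicate block gave 155, of which 83 were shared, and changed the calls of Il6ra, Zfp945, Serpina4-ps1, Ndrg1, Rnf5, Mup10 (adjusted p = 0.0813), Jup (adjusted p = 0.0588), Pdia6 and Fgl1 and of no other named gene. Of 59 named called genes, 14 were called under every alternative in which they were tested. The number losing the call was 33 without Myd88_null 4, 28 without Myd88_null 2, 37 on only 10 arrays and 2 without Ager_null 6. Signs reversed for Gfer (0.56) and Gnai2 (0.15) as means of their probe sets; the probe sets of each gene differ in sign. The S range block lost 13: Fitm1, Abca3, Tedc2, Zfp945, Zfp944, Gfer, Fpr2, Gnai2, Serpina4-ps1, Slc16a7, Ces1e, Mup10 and Slco1a4. That block leans on Myd88_null 4, the only Myd88_null array in S 13 to 20, where all Ager_null arrays lie. For the other moves the cause was not tested. Dim genes near log2 4 are the least certain.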

Other observations

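The called genes given here were chosen after their values were seen, and each stands for itself and for no pathway or cell type. Pdk1, the kinase that inhibits pyruvate dehydrogenase, read 10.06, 10.27 and 10.42 at the lowest, median and highest of Ager_null and 10.85 to 11.09 in Myd88_null (-0.70 ± 0.13, adjusted p = 0.0152). Slc16a7, a monocarboxylate transporter, was lower by 0.66 ± 0.14 and Aldoa, an aldolase, by 0.54 ± 0.13, with overlap in Aldoa, whose other 4 probe sets read -0.52, -0.49, -0.34 and 0.06. Without Myd88_null 4 these 3 were at -0.65, -0.57 and -0.54 and were not called. Also lower in Ager_null were the carboxylesterases Ces2g (-0.83 ± 0.18) and Ces1e (-0.60 ± 0.12), the retinol dehydrogenase Rdh16 (-0.73 ± 0.14), the urinary protein gene Mup10 (-0.78 ± 0.19) and the organic anion transporter Slco1a4 (-1.42 ± 0.31). Slco1a4 ran from 6.90 to 8.22 in Ager_null and from 8.65 to 9.48 in Myd88_null, with WT at 8.31. The hepatocyte marker list as a whole had 11 of 15 members above 0, with a median of 0.05. Of these 5 called genes, Mup10 was still called without Myd88_null 4 (-0.95, adjusted p = 0.0288).

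Fgfr1, a fibroblast growth factor receptor, ran from 3.57 to 4.27 in Ager_null and from 4.74 to 6.09 in Myd88_null (-1.38 ± 0.22, adjusted p = 0.00255), and Gpc1, a cell-surface heparan sulfate proteoglycan, from 4.27 to 5.05 and from 5.31 to 6.26 (-1.06 ± 0.21, adjusted p = 0.0213). Wwtr1, which encodes the Hippo pathway coactivator TAZ, read 7.50, 7.73 and 7.97 in Ager_null and 8.31 to 8.70 in Myd88_null (-0.77 ± 0.12, adjusted p = 0.00301), apart in every array. Fgfr1, Gpc1 and Wwtr1 were called without Myd88_null 4. Jup, plakoglobin, was lower by 0.88 ± 0.20, while Cdh1, E-cadherin, was higher by 0.55 ± 0.13, with overlap, and neither was called without that array. Qsox1, a sulfhydryl oxidase, was higher in Ager_null and ran from 10.70 to 11.05 against 10.06 to 10.33 (0.62 ± 0.10, adjusted p = 0.00248), and the disulfide isomerase Pdia5 from 10.47 to 10.66 against 9.86 to 10.25 (0.52 ± 0.11). Other disulfide isomerase genes were not called, among them Pdia3 (0.42 ± 0.17) and Pdia4 (-0.04 ± 0.28). Hacl1, a peroxisomal lyase of branched fatty acids, was higher by 0.61 ± 0.15.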
